A study of Mus musculus with 8 samples.

Results

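The growth factor signals that sustain microglia and macrophages, and the transcription factors that set their identity, were examined in the brainstem of Vglut2:Ndufs4cKO mice. The genes were the receptor Csf1r, its ligands Csf1 and Il34, and the transcription factors Spi1, Irf8, Irf5, Runx1, Cebpa and Cebpb. Probes were taken by gene symbol from the table of unnormalized signals. Each of Csf1, Il34, Spi1, Irf8, Irf5, Runx1, Cebpa and Cebpb had 1 probe, which made 8 of the 16593 named genes and 8 of the 25697 probes on the array, and Csf1r itself was not analysed here. Of these 8 probes, 6 were tested, because Spi1 and Runx1 were detected on fewer than 3 arrays.

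Whole brainstem RNA came from 4 late-stage (over P68) Vglut2:Ndufs4cKO mice and 4 Vglut2:Ndufs4cCT littermate controls on a C57BL/6J background (written C57/BL6J in the sample labels), with 1 Illumina MouseRef-8 v2 array per mouse. All mice carried Slc17a6-Cre, which acts in glutamatergic neurons expressing Vglut2. The Vglut2:Ndufs4cKO mice had a deleted and a floxed allele of Ndufs4, a subunit of mitochondrial complex I, and the controls had a floxed and a wild-type allele. The germline deleted allele was thus carried by every cell of the Vglut2:Ndufs4cKO mice and by no control.

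Csf1r is the tyrosine kinase receptor that microglia and most tissue macrophages need to survive and proliferate. It has a pair of ligands, Csf1, made largely by glia, and Il34, made in the brain largely by neurons. Spi1 encodes PU.1, an ETS factor that directs progenitors to the myeloid lineage and drives the Csf1r gene itself. Irf8 binds DNA beside PU.1 and is needed for the normal number and reactive state of microglia. Runx1 acts in the embryonic progenitors of the lineage, Cebpa in myeloid progenitors of bone marrow, and Cebpb in inflammatory responses of several cell types, astrocytes among them.

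The arrays had between 14293 and 15042 detected probes, and the scaling factors that equalized their mean signals were between 0.876 and 1.09. Of the 4 Ndufs4 probes, ILMN_1234521 was lower in the Vglut2:Ndufs4cKO brainstem with a log2 fold change of -1.41 (adjusted p = 0.0228 from limma), and the other 3 had changes between -0.20 and -0.14 and did not pass. Position on the shared beadchip followed genotype, with controls at A to D and Vglut2:Ndufs4cKO mice at E to H, so the effects of both cannot be told apart. Over all tested probes, 0.67% were called higher and 0.0328% lower at an adjusted p under 0.05, and the median log2 fold change was 0.01.

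Irf8 rose in the Vglut2:Ndufs4cKO brainstem, and it was the only one of the 6 tested probes that passed. No tested probe of the set was called lower. Cebpb was also higher in every Vglut2:Ndufs4cKO mouse than in any control, but missed the threshold. Irf5, Il34 and Csf1 had smaller differences with overlapping groups, and Cebpa had almost none. Fold changes are on the scale of log2(signal + 16) after background correction, which understates those of dim probes. Of the 6 tested probes, 1 was called higher, against 0.67% of all tested probes, and 0 lower, against 0.0328%. Before adjustment 3 were higher at an unadjusted p under 0.05, against 6.86% of all tested probes, and 0 lower, against 3.02%. The groups did not overlap, with higher values in the Vglut2:Ndufs4cKO mice, for 2 of the 6, against 4.01% of all tested probes, and with lower values for 0, against 1.79%. The median log2 fold change of the 6 was 0.40. The genes were picked with earlier results of these arrays known, so these shares are not independent evidence.

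**Figure D1:**
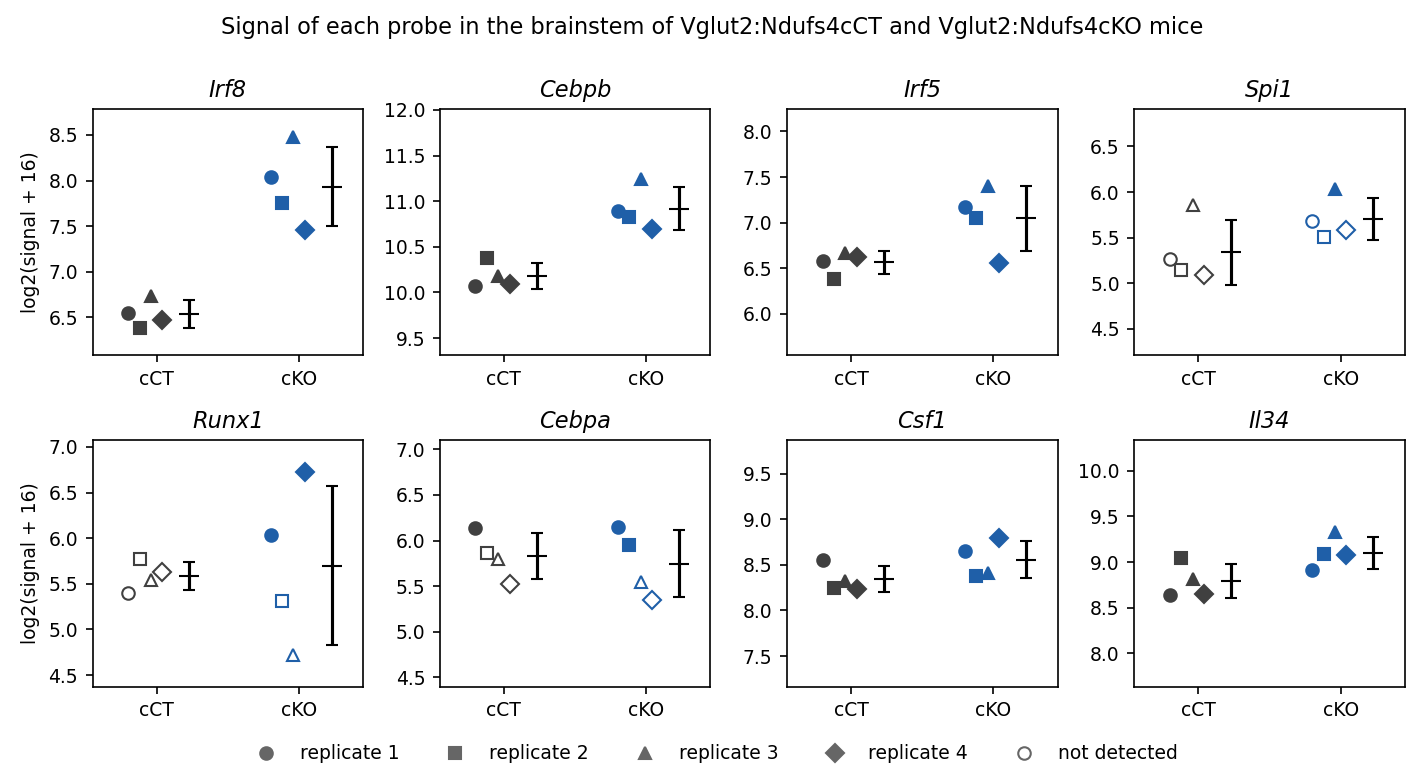
Log2(signal + 16) of the 8 probes in each of the 8 arrays, with cCT for Vglut2:Ndufs4cCT and cKO for Vglut2:Ndufs4cKO, 1 marker shape per replicate number and open markers where the probe was not detected. Bars are the mean ± SD of 4 mice and every panel spans the same height, with the groups apart for Irf8 and Cebpb, while Spi1 and Runx1 are undetected on all 4 control arrays.

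Irf8 lies at chr8:120736358-120756694 of GRCm38.p6, the build of all positions given. Its promoter is shown because it is the member that changed, and that of Cebpb because its groups did not overlap. Both are RefSeq windows of GRCm38.p6 from 250 bases before to 50 after the annotated start, on the plus strand, at chr8:120736108-120736407 and chr2:167688665-167688964. Capitals mark matches to the GAS element TTCNNNGAA, which STAT factors bind downstream of interferon, and to the TATA box TATAAA.
Irf8 promoter: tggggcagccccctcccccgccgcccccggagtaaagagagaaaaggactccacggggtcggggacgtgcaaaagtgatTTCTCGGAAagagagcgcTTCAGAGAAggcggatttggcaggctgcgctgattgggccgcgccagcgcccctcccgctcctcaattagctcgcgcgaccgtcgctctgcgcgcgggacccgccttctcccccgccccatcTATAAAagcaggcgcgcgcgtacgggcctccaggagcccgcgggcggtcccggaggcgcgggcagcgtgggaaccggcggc
Cebpb promoter: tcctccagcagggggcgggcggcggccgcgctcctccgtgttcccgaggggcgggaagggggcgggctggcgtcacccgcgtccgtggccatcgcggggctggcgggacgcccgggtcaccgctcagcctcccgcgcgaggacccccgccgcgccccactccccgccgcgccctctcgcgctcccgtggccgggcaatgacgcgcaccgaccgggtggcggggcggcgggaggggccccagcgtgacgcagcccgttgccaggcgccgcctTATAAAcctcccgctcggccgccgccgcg

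Positions are given as the distance of the first base of a match from the start, negative before it. The Irf8 window held 2 GAS matches, at -171 and -153, and a TATA box at -31. A GAS match occurred in 8.3% of 32851 promoter windows of this length and a TATA box in 13.6%. Cebpb had a TATA box at 21, after its annotated start, and no GAS match. Both motifs were searched after the sequences had been read. The core of PU.1 sites GGAAGT (23.8% of all windows), the interferon-stimulated response element (GAAA, any 2 bases, then GAAA, 3.44%), the composite ETS-IRF element (GGAA, any 2 bases, then GAAA, 2.72%), the C/EBP core TTGCNNAA (10.8%) and the RUNX core TGTGGT (16.8%) had no match in either printed window, on either strand. Matches of the 2 IRF elements can overlap each other. The window of a second annotated start of Irf8, at chr8:120738389-120738688, had no match to any of the motifs searched. Windows were at hand for 6 of the 9 genes, with a second start for Irf8 and Runx1. Among the others Irf5 had a PU.1 core at 38 and Runx1 had 2 RUNX cores, at 28 and 36 of one of its windows, and the TATA box of Cebpa was at -30. A match here is a description of the letters alone.

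In the control brainstem, replicates 1 to 4, the log2 signal of Irf8 was 6.55, 6.39, 6.74 and 6.48. The 4 Vglut2:Ndufs4cKO mice had 8.04, 7.75, 8.48 and 7.46. Every Vglut2:Ndufs4cKO mouse lay above every control, replicate 3 highest and replicate 4 lowest. The means were 6.54 ± 0.15 and 7.93 ± 0.44 (SD, n = 4 mice), which differed by 1.39 on the log2 scale, or 2.63-fold, with a standard error (SE) of 0.21 and a 95% interval of 0.93 to 1.86. The limma adjusted p was 0.0195. An exact permutation test, two-sided, gave p = 0.0286, and no smaller value is possible with 4 mice per group. Before correction the scanner signal was 261.9 to 295.9 in the controls and 334.4 to 536.2 in the Vglut2:Ndufs4cKO mice, and the probe was detected on all 8 arrays. The standard error over the beads of the probe was 4.69% to 6.41% of the signal on the 8 arrays. The call was lost without any one of the 4 control arrays and without Vglut2:Ndufs4cKO replicate 1 (log2 fold changes of 1.40, 1.34, 1.46, 1.37 and 1.36, adjusted p = 0.0585, 0.0670, 0.0572, 0.0769 and 0.0768 from limma). Without background correction the log2 fold change was 0.60 and still passed.

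Cebpb lies at chr2:167688915-167690432. The controls, in the same order of replicates, had a log2 signal of 10.07, 10.38, 10.18 and 10.09, and the Vglut2:Ndufs4cKO mice had 10.89, 10.83, 11.25 and 10.70. As with Irf8, the groups did not overlap, and replicate 3 was the highest and replicate 4 the lowest of the Vglut2:Ndufs4cKO mice. The means were 10.18 ± 0.14 and 10.92 ± 0.23 (SD, n = 4 mice), which differed by 0.74 on the log2 scale or 1.67-fold (SE 0.15, 95% interval 0.41 to 1.07, limma adjusted p = 0.0693, exact permutation p = 0.0286). It ranked 139 by p among the 15225 tested probes, of which 102 were called higher and 5 lower. It passed without Vglut2:Ndufs4cKO replicate 4 (0.81, adjusted p = 0.0321 from limma), without background correction (0.65, adjusted p = 0.0369), with a strict filter (0.74, adjusted p = 0.0449), with a variance trend and robust moderation (0.74, adjusted p = 0.0299) and with array weights (0.77, adjusted p = 0.0174). It missed the threshold in 7 of the 8 fits with an array left out (limma adjusted p up to 0.232). In 6 of 10 other settings it missed too, among them the authors' normalized values (adjusted p = 0.0829) and the replicate number as a block (0.247).

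Irf5, an interferon regulatory factor that acts below toll-like receptors in macrophages, lies at chr6:29526130-29541869. The log2 signal of the controls was 6.58, 6.39, 6.66 and 6.63, and that of the Vglut2:Ndufs4cKO mice was 7.17, 7.06, 7.40 and 6.56. Of the Vglut2:Ndufs4cKO mice, 3 lay above every control and replicate 4 lay within the control range. The log2 fold change was 0.48 (SE 0.18, 95% interval 0.08 to 0.88, limma adjusted p = 0.404, exact permutation p = 0.114). Without background correction it was 0.15. Without Vglut2:Ndufs4cKO replicate 4 it was 0.64 and passed (adjusted p = 0.0476 from limma).

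Spi1, at chr2:91082374-91115759, was at the limit of detection. Its log2 signal was 5.27, 5.14, 5.86 and 5.09 in the control replicates 1 to 4 and 5.68, 5.51, 6.03 and 5.59 in the Vglut2:Ndufs4cKO replicates 1 to 4, and it was detected in Vglut2:Ndufs4cKO replicate 3 alone. It was not tested, since the other 7 values lay below detection and only bound the level.

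Runx1, at chr16:92601466-92826074, was detected on no control array and in Vglut2:Ndufs4cKO replicates 1 and 4. Its log2 signal was 5.39, 5.77, 5.55 and 5.63 in the control replicates 1 to 4 and 6.04, 5.32, 4.72 and 6.73 in the Vglut2:Ndufs4cKO replicates 1 to 4. The 6 values below detection only bound the level and have no order, so no comparison is drawn.

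Cebpa, at chr7:35119293-35121928, was also dim and was detected in control replicate 1 and Vglut2:Ndufs4cKO replicates 1 and 2. Its log2 signal was 6.14, 5.86, 5.80 and 5.53 in the control replicates 1 to 4 and 6.15, 5.95, 5.55 and 5.35 in the Vglut2:Ndufs4cKO replicates 1 to 4. The groups covered the same range, with a log2 fold change of -0.08 (SE 0.20, 95% interval -0.54 to 0.37, limma adjusted p = 0.923, exact permutation p = 0.771). The interval holds both lower and higher levels, so equal levels are not shown.

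Of the ligands, neither passed, and both were detected on all 8 arrays. Csf1, at chr3:107741048-107760469, had a log2 signal of 8.55, 8.25, 8.33 and 8.24 in the control replicates 1 to 4 and of 8.65, 8.37, 8.41 and 8.79 in the Vglut2:Ndufs4cKO replicates 1 to 4. Control replicate 1 lay above 2 of the Vglut2:Ndufs4cKO mice, and replicate 4 was the highest. The log2 fold change was 0.21 (SE 0.14, 95% interval -0.10 to 0.53, limma adjusted p = 0.657, exact permutation p = 0.171). Il34, at chr8:110741829-110805949, had a log2 signal of 8.64, 9.05, 8.82 and 8.65 in the control replicates 1 to 4 and of 8.91, 9.09, 9.33 and 9.08 in the Vglut2:Ndufs4cKO replicates 1 to 4. Only control replicate 2 reached into the range of the Vglut2:Ndufs4cKO mice. The log2 fold change was 0.31 (SE 0.14, 95% interval -0.01 to 0.63, limma adjusted p = 0.520, exact permutation p = 0.0571).

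**Figure D2:**
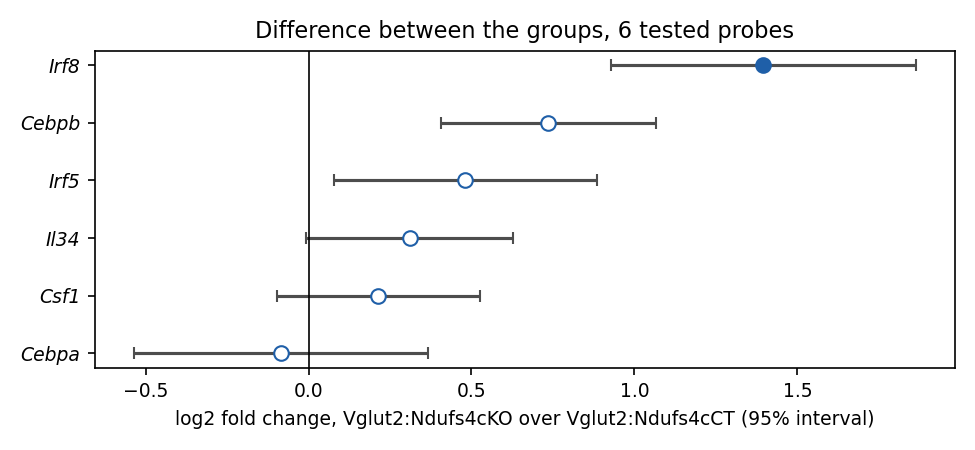
Log2 fold change of the 6 tested probes, Vglut2:Ndufs4cKO over Vglut2:Ndufs4cCT, from limma with 95% intervals, 4 mice per group. The filled marker (Irf8, 1.39) passed at an adjusted p under 0.05 and open markers did not, and the intervals of Il34, Csf1 and Cebpa hold 0.

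Irf8, Cebpb and Irf5 ranked the Vglut2:Ndufs4cKO mice in the same order, with replicate 3 highest, then replicates 1, 2 and 4. Their orders among the controls differed, with control replicate 2 highest for Cebpb and lowest for Irf8 and Irf5. Over the 8 arrays Pearson's r was 0.95 between Irf8 and Cebpb and 0.91 between Irf8 and Irf5. With each group's mean removed, r was 0.71 and 0.92. Il34 followed Cebpb (r = 0.87, and 0.79 with group means removed). Csf1 did not follow them, with r between -0.37 and -0.58 against Irf8, Irf5, Il34 and Cebpb once group means were removed. These are descriptions over 8 arrays whose probes share array and scaling.

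Some markers of microglia and macrophages were higher in the Vglut2:Ndufs4cKO brainstem too. Of 19 such markers, 15 were tested, 6 were higher, 0 lower and 9 did not pass (11 higher at an unadjusted p under 0.05), with a median log2 fold change of 1.01 against 0.02 over 10427 tested genes, of which 0.777% were called higher and 0.0288% lower. Before adjustment, 7.19% of tested genes were higher and 3.02% lower, and the groups did not overlap for 4.29% with higher and 2.03% with lower values. The groups did not overlap for 9 of the 15 markers, all with higher values. A gene was read from its brightest tested probe. The 6 were Trem2, a lipid receptor of microglia (1.70, adjusted p = 0.0232 from limma), the complement subunits C1qa, C1qb and C1qc (1.26, 1.39 and 1.47, adjusted p = 0.0195, 0.0229 and 0.0436), Fcrls, an Fc receptor-like scavenger protein of microglia (1.33, adjusted p = 0.0153), and Laptm5, a lysosomal protein of blood cells (0.92, adjusted p = 0.0237). Of these, all but Fcrls kept a call in at most 3 of 8 fits that each left out 1 array. P2ry12, P2ry13, Tmem119, Siglech and Gpr34, receptors and membrane proteins of microglia, had log2 fold changes of 0.16, 0.25, 0.38, 0.39 and 0.40. Their groups overlapped and they did not pass. Dimmer tested probes of Siglech and Gpr34 had 0.60 and 0.49 and did not pass either (limma). The remaining markers that did not pass had larger changes. They were Tyrobp, Aif1, Cx3cr1 and Adgre1, with 1.20, 1.08, 1.01 and 0.99, and only for Aif1 did the groups overlap. Itgam and Ptprc, which also mark these cells, were not tested, since Itgam was detected on no array and Ptprc on fewer than 3.

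The summed signal of the 15 markers was 17140 to 19635 in the controls and, in Vglut2:Ndufs4cKO replicates 1 to 4, 40853, 37391, 49663 and 30813. This is the order in which Irf8, Cebpb and Irf5 ranked these mice. Most of the sum came from Laptm5 and C1qb, the brightest of the 15, which both passed. Their mean log2 signals were 12.91 and 11.45 in the controls and 13.83 and 12.84 in the Vglut2:Ndufs4cKO mice. In whole tissue, more cells of a type and more RNA per cell cannot be told apart, and the part of the marker signal in the change of Irf8 was not tested. Of 9 tested markers of border macrophages and monocytes, 0 passed in either direction (limma), with a median of 0.27. At an unadjusted p under 0.05, 1 was higher, against 7.19% of all tested genes. Their summed signal was 3969.3 to 4882.1 in the controls and 4390.5 to 6269.2 in the Vglut2:Ndufs4cKO mice. Most of that sum was Ly6c1, the brightest, with mean log2 signals of 11.77 in the controls and 11.96 in the Vglut2:Ndufs4cKO mice. The sum thus says little of the other markers. Mrc1, the mannose receptor, and Cd163, a hemoglobin scavenger receptor, had log2 fold changes of 0.54 and 0.46. Ccr2, the receptor by which monocytes enter tissue, was not tested because it was detected on no array.

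**Figure D3:**
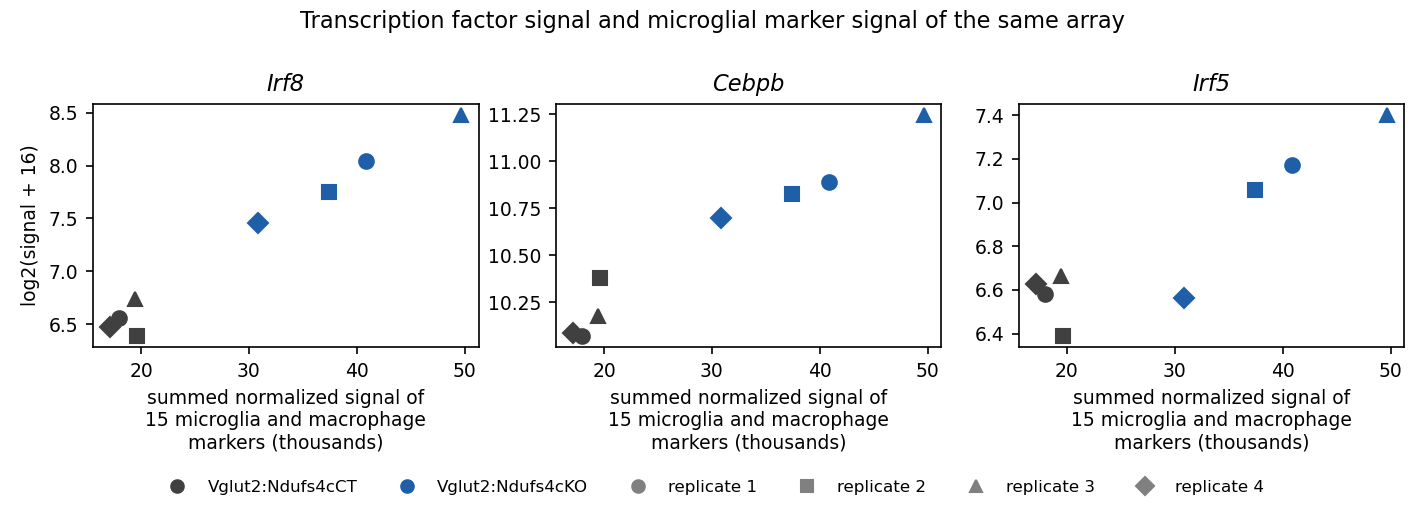
Log2(signal + 16) of Irf8, Cebpb and Irf5 against the summed normalized signal of 15 microglia and macrophage markers, 1 point per array, with marker shapes for replicate numbers. Most of the sum came from Laptm5 and C1qb. The controls lie between 17140 and 19635 on the horizontal axis and the Vglut2:Ndufs4cKO mice between 30813 and 49663, with replicate 4 lowest and replicate 3 highest in all panels.

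Markers of other cell types gave no call. Of 9 neutrophil markers 5 were tested and 0 passed (limma, with 1 in each direction before adjustment). Camp, an antimicrobial peptide of neutrophil granules, was lower in all Vglut2:Ndufs4cKO mice without passing (-0.95, adjusted p = 0.158 from limma). It was detected on 4 control arrays and 2 Vglut2:Ndufs4cKO arrays, so this difference rests in part on values below detection. Of 9 lymphocyte markers on the array only the T cell gene Cd3e was tested (-0.10, adjusted p = 0.908). Of 8 astrocyte, 10 neuron, 6 oligodendrocyte and 6 vascular markers tested, 0 passed in either direction. Before adjustment 2 astrocyte and 1 vascular marker were higher and 1 oligodendrocyte marker lower, against 7.19% of all tested genes higher and 3.02% lower. Gfap, the filament protein of reactive astrocytes, had 0.85 (adjusted p = 0.297), Slc17a6, which encodes Vglut2, -0.17 (adjusted p = 0.669), the myelin enzyme Cnp -0.27 (adjusted p = 0.485) and the pericyte receptor Pdgfrb 0.59 (adjusted p = 0.321). Of the globin and heme genes 3 were tested, and Hbb-bt, a beta globin, had -0.56 (adjusted p = 0.325). For the tissue, 8 of 10 hindbrain genes were tested, Hox genes among them (Hoxb5, -0.21, adjusted p = 0.621), and 0 of 3 forebrain genes on the array reached detection on 3 arrays.

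The relatives of the transcription factors gave no call. Of 5 other IRF genes tested, 0 passed (limma), with a median log2 fold change of 0.50. At an unadjusted p under 0.05, 3 were higher, against 7.19% of all tested genes. The 3 were Irf9, which joins STAT factors below the type I interferon receptor (0.85, adjusted p = 0.180), Irf7, which amplifies interferon production (1.27, SE 0.50, adjusted p = 0.442), and Irf1 (0.50, adjusted p = 0.373). Irf7 was detected on 1 control array and 3 Vglut2:Ndufs4cKO arrays, so its difference rests in part on values below detection. Irf2 and Irf3 had -0.09 and -0.08. The probes of Irf1 disagreed, with 0.61 for a dimmer probe and 0.09 and -0.04 for a further pair. Of 5 ETS relatives of Spi1 tested 0 passed (0 at an unadjusted p under 0.05), with Ets1 at -0.21, Spib, which acts in B cells and plasmacytoid dendritic cells, at -0.26 and Ets2 at 0.16. Of C/EBP relatives, Cebpg (-0.09) and Ddit3, a factor of the integrated stress response (-0.01), were tested and did not pass. Of RUNX relatives and partners, Cbfb, the shared partner subunit (-0.13), Runx1t1 (-0.07) and Cbfa2t3 (0.06) were tested and did not pass. A difference in response between Irf8 and its relatives was not tested.

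Of 30 further transcription factors of myeloid cells and microglia, 22 were tested and 0 passed (limma), with a median of 0.20. At an unadjusted p under 0.05, 1 was higher, against 7.19% of all tested genes. Egr2, an early growth response factor of macrophages, had 0.62 (adjusted p = 0.427), but was detected on only 1 control array and 3 Vglut2:Ndufs4cKO arrays. Mef2a, a MADS box factor of microglia, had 0.31 (adjusted p = 0.529). Ikzf1, a zinc finger factor of blood cells, was detected on no control array and on 3 Vglut2:Ndufs4cKO arrays, and Vglut2:Ndufs4cKO replicate 3 (5.52) lay below 3 of the controls, so no difference is given. Sall1, which maintains microglial identity, had 0.10 (adjusted p = 0.843).

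**Figure D4:**
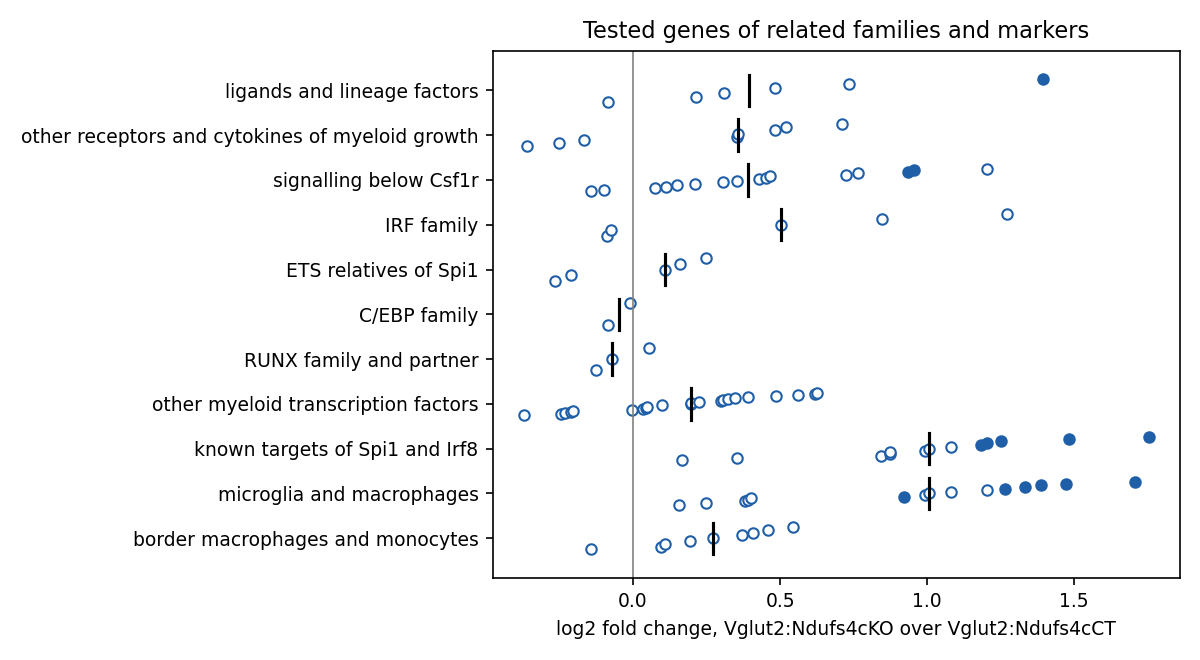
Log2 fold change of every tested gene in each list, Vglut2:Ndufs4cKO over Vglut2:Ndufs4cCT, from its brightest tested probe, with filled points passing at an adjusted p under 0.05 and a bar at the median of each list. Filled points occur for Irf8, for Vav1 and Ptpn6 in the signalling list and among targets and microglial markers. The medians of targets and of microglial markers are both 1.01 because the same gene, Cx3cr1, is the median of both lists.

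Several genes that PU.1 and Irf8 are known to drive in macrophages were higher. Of 22 listed, 13 were tested, 5 rose, 0 fell and 8 did not pass, with a median of 1.01. At an unadjusted p under 0.05, 12 were higher. Over all tested genes 0.777% were called higher and 7.19% were higher before adjustment. The 12 include Itgb2, detected on no control array and on 4 Vglut2:Ndufs4cKO arrays, so it was tested only through the group where it is high. Ncf4 was detected on 2 control arrays and on 4 Vglut2:Ndufs4cKO arrays. Those that rose were Cd14, the coreceptor for lipopolysaccharide (1.48, SE 0.13, limma adjusted p = 0.00159), the Fc receptor Fcgr3 (1.18, adjusted p = 0.00256), the lysosomal protease Ctss (1.25, adjusted p = 0.0164), the oxidase subunit Ncf4 (1.21, adjusted p = 0.0170) and lysozyme Lyz2 (1.75, adjusted p = 0.0232). Cd14 and Fcgr3 passed in all 8 fits that left out 1 array, Ctss and Ncf4 in 5 and Lyz2 in 2. Of the 13, Adgre1, Aif1 and Cx3cr1 (0.99, 1.08 and 1.01, none passing) stand in the marker list too. Cx3cr1 is the median of both lists, so their equal medians are the same value. The lists, like the members, were drawn up with earlier results known. The study picked Lyz2, and C1qa and C1qb of the marker list, from these same arrays, so their calls are not independent evidence. Lyz2 has a close paralog, and whether its probe also binds that transcript was not checked.

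Below Csf1r, 16 of 25 signalling genes were tested, 2 rose, 0 fell and 14 did not pass, with a median of 0.39. At an unadjusted p under 0.05, 7 were higher. Over all tested genes 0.777% were called higher and 7.19% were higher before adjustment. The 16 include Sos1, detected on no control array and on 3 Vglut2:Ndufs4cKO arrays. Vav1, an exchange factor for Rac in blood cells, rose with a log2 fold change of 0.93 (SE 0.12, limma adjusted p = 0.0120) and Ptpn6, the phosphatase SHP-1, with 0.96 (SE 0.16, adjusted p = 0.0336). Vav1 lost its call without control replicate 3 (adjusted p = 0.0508), and Ptpn6 kept it in 1 of the 8 fits. Tyrobp, the adaptor DAP12 that cooperates with Csf1r, had 1.20 (adjusted p = 0.0667 from limma). Stat3, the kinase Src and the adaptor Grb2 had 0.35, 0.15 and 0.07 and did not pass. Grb2 was detected on 2 control arrays and 4 Vglut2:Ndufs4cKO arrays, so its difference rests in part on values below detection. Among 8 tested receptors and cytokines of myeloid growth 0 passed (4 higher at an unadjusted p under 0.05), with a median of 0.36. The receptors Tgfbr2, Csf3r and Tgfbr1 were higher in every Vglut2:Ndufs4cKO mouse than in any control, with log2 fold changes of 0.52, 0.71 and 0.48 (adjusted p = 0.144, 0.167 and 0.219 from limma). Such a separation with higher values was seen for 4.29% of all tested genes.

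The tested genes whose signal was most like that of Irf8 across the 8 arrays were Lgals3bp, a secreted glycoprotein that binds galectins (r = 0.996, and 0.989 with group means removed), C1qb (0.99), Lag3, an inhibitory receptor (0.99), C1qa (0.99) and Trim30d (0.98). Those most like Cebpb were Clba1 (0.99), P2ry6, a nucleotide receptor of microglia (0.99), Lpxn (0.98), Ctss (0.98) and Prss8 (0.98). Likeness was measured by Pearson's r against the brightest tested probes of 10426 other genes, and it includes the difference between the groups. Irf8 and Cebpb were chosen for it after their values had been seen.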

How the data were processed

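The authors read the beadchips on a BeadArray Reader with GenomeStudio (version not given in the sources used here). They deposited, per probe, the signal intensity before normalization, the number of beads, their standard error and the detection p-value against negative controls. The authors also deposited intensity values after background subtraction and average normalization, used here as an alternative.

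In R 4.3.3 with limma 3.58.1, background was removed from the unnormalized intensities by normexp, inferred from the detection p-values. Arrays were scaled to equal mean signal, 16 was added and log2 taken. Testing was limited to the 15225 probes detected (p under 0.05) on 3 or more of the 8 arrays. Groups were compared with lmFit and eBayes, and p-values were adjusted by Benjamini-Hochberg across the 15225 probes, with calls at an adjusted p under 0.05. Single probes were also compared by exact permutation over 70 arrangements. GenomeStudio's custom error model was not repeated. Where each probe lies in its transcript is not known from the sources used here.

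A single gene symbol was given for 23978 probes and none for 1719. Of 226 symbols in the gene lists, 199 matched. All member probes were named, and of each list the genes that passed, or otherwise up to 3 with the smallest p. Some further list members were named after their values were seen. The rule for genes most like Csf1r was applied to Irf8 and Cebpb instead. The members and lists were chosen with earlier results of these data known.

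Results were recomputed with each array left out, the replicate number as a block, array weights, robust moderation with a variance trend, a strict filter (all arrays of a group at a detection p under 0.01) or none, the authors' own normalized values, 1 or 50 added before log2, quantile normalization, and uncorrected background.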

Additional observations from a re-analysis of the deposited data

How the results depend on the processing

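The increase of Irf8 kept its direction and passed in 9 of the 10 settings that used all arrays (log2 fold changes of 0.60 to 1.56), and with 1 array left out it was 1.21 to 1.55 (adjusted p between 0.0123 and 0.0769) and passed in 3 of 8 fits. Left-out arrays gave 0 to 3 calls among the 6 tested probes. Cebpb was 0.63 to 0.81 with 1 array left out and missed the threshold in 7 of these 8 fits. With all arrays it missed in 6 of 10 settings. It passed with no background correction (0.65), the strict filter (0.74), a variance trend with robust moderation (0.74) and array weights (0.77), each of which gave 2 member calls. With all arrays Irf5 was 0.15 to 0.55 over the other settings, and with 1 array left out it was 0.36 to 0.64, Cebpa -0.19 to 0.0485, Csf1 0.14 to 0.28 and Il34 0.24 to 0.40. Without background correction the log2 fold changes were smaller, 0.60 for Irf8, 0.15 for Irf5 and 0.12 for Csf1, against 1.39, 0.48 and 0.21, and Csf1 fell to 0.14 without Vglut2:Ndufs4cKO replicate 4. Cebpa turned to 0.14 with array weights. The cause was not tested.

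Over all tested probes 102 were higher and 5 lower. With array weights 213 were higher and 27 lower, and with an offset of 50 the number lower was 3. With 1 array left out, 30 to 234 were higher and 0 to 123 lower, the highest numbers without Vglut2:Ndufs4cKO replicate 4. The 13 related genes called higher became 2 to 20, and those called lower, of which there were 0, became 0 to 1. With the replicate number as a block, Irf8 had an unchanged 1.39 and missed the threshold (adjusted p = 0.0615), 0 member probes and 0 related genes passed, and 11 probes were higher and 0 lower over the array. Deviations of same-numbered mice from their group means had correlations of -0.26 to -0.19, and those of other pairs ran from -0.22 to 0.25. Whether the replicate number marks a pairing is not given by the labels. These correlations cannot decide it, since deviations from a group mean depend on each other. Fits with an array left out, like the block, have fewer degrees of freedom. The strict filter left Irf5 and Cebpa untested, and 3 of the fits with an array left out did so for Cebpa. Spi1, Runx1 and Cebpa lay near background, which limits what can be said of them. The lowest detected log2 signal of an array was 5.77 to 6.13. Irf8 and Irf5 in the controls were not far above it, at 6.39 to 6.74 and 6.39 to 6.66. The size of their fold changes thus depends on the background correction.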
